A study of Mus musculus with 4 samples.

Results

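The 57 genes described here encode the extracellular and membrane parts of Wnt signalling, with beta-catenin, the Axin proteins and the TCF/LEF factors added. They were chosen by name from the 23242 rows of a mouse prostate expression table: every gene whose symbol starts with Wnt and a digit, Fzd, Dkk, Sfrp or Rspo, and 15 named genes. The rule itself uses names and no measured value. The RNA came from the ventral and dorsal lobes of the prostate in 4 mice of the FVB strain. The homozygotes, mice 26 and 29, are homozygous for a TMPRSS2:ERG transgene and labelled positive for ERG; in it a GFP cassette between loxP sites, followed by exons of human ERG, was placed in a bacterial artificial chromosome holding the TMPRSS2 locus. The wild types, mice 27 and 28, are FVB mice labelled negative for ERG. All homozygotes descend from 1 sub-line obtained after Cre protein was injected into fertilised eggs, so an effect of the transgene and an effect of its insertion site cannot be told apart. Each library is a mouse of its own, and the labels give no age.

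Wnt proteins are secreted, lipid-modified ligands that bind Frizzled receptors together with the co-receptors Lrp5 or Lrp6. In the canonical branch this stops the destruction complex, of which Axin is the scaffold, from degrading beta-catenin, which then acts with TCF/LEF proteins on target genes. Secreted Frizzled-related proteins, Wif1 and Dickkopf proteins hold the ligands or co-receptors back, while R-spondins bind Lgr receptors and keep Frizzled at the cell surface. In the prostate, Wnt ligands and antagonists are known from the stroma as well as the epithelium, and they take part in budding of the gland and in its basal and luminal progenitors.

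Levels are given as scaled FPKM, that is fragments per kilobase of transcript per 1e6 fragments after division by a scaling factor for each library, so levels of different genes are on one length-corrected scale. Differences are in log2(scaled FPKM + 1), homozygote minus wild type, and understate the change of low genes. They were tested with limma across all genes whose scaled FPKM averaged 1 or more, and a gene is called at a Benjamini-Hochberg adjusted p under 0.05. FPKM values hold no counts. A rough estimate of depth, near 45.3 to 52 × 1e6 fragments per library, took each value of genes with 1 transcript as a single fragment. It is the middle of the commonest bin of the depths so implied. That bin held 60 to 68 genes, of 1929 to 2040 per library, so the estimate is weak. The libraries carried transcripts of prostate secretion: Pbsn (probasin) was at 14386 and 11155 scaled FPKM in homozygotes 26 and 29 and at 12135 and 9477 in wild types 27 and 28. Of the 7 tested genes of prostate secretion, Spdef was called higher and Spink3 and Azgp1 lower. Spink3 was at 97.1 and 8.7 scaled FPKM in homozygotes 26 and 29 and at 38646 and 30639 in wild types 27 and 28, so the libraries differed strongly in some secretory genes, and the part of this in the Wnt values was not tested. Luminal markers (14 genes summed) lay at 2853 to 2896 scaled FPKM in homozygotes and at 2567 to 2574 in wild types. Seminal vesicle genes were also present, with a sum over 9 genes of 4353 and 8185 in homozygotes 26 and 29 and of 42710 and 11080 in wild types 27 and 28. The list holds 12 genes, and Svs2, Svs4 and Svs5 were left out of the sum because at least 1 library had no usable value. The sum therefore understates seminal vesicle RNA. Mouse Erg was at 0.881 and 1.12 scaled FPKM in homozygotes 26 and 29 and at 1.06 and 0.926 in wild types 27 and 28. Whether reads of the human exons count toward mouse Erg was not tested, so these values do not check the labels. With 2 mice per genotype an exact permutation test of a single gene cannot give a two-sided p under 0.333, and the calls below rest on variance shared across genes.

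In homozygotes the receptor gene Fzd4 rose, and the ligand gene Wnt4, the antagonist gene Wif1 and the repressor gene Tcf7l1 fell. Of the 57 genes, 33 passed the filter on low values and were tested, and 24 did not. The 1 called higher and the 3 called lower among the 33 stand beside a background of 4.65% higher and 3.00% lower among all 11762 genes tested (7.65% in either direction). The groups did not overlap in 20 of the 33 (60.6%), where 51.1% of all tested genes showed the same. The median difference of the 33 was -0.13, against -0.0033 over all tested genes, and 24 of the 33 (72.7%) lay below 0, against 50.6% of all. This lean depended on the wild type used. Without wild type 28 the median was -0.02 and 17 of 34 Wnt genes lay below 0. Without wild type 27 it was -0.21 and 28 of 35 did. Without a scaling factor 73.0% of all calls were higher, against 60.8% with it. The number of Wnt genes called depended on the libraries: it was 4 higher and 11 lower without wild type 27 (17.2% of all genes called), 3 higher and 4 lower without wild type 28 (13.9%), 0 higher and 1 lower without homozygote 26 (3.01%), and 0 in either direction without homozygote 29 (3.36%). A count of 0 does not show that no gene differed. With all 4 libraries, 5 of the 33 were higher and 9 lower at an unadjusted limma p under 0.05, beside 1295 higher and 1180 lower of all 11762 tested genes. The authors' deposited table calls 3 higher and 7 lower (7.04% and 7.10% of its 14374 genes).

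**Figure D1:**
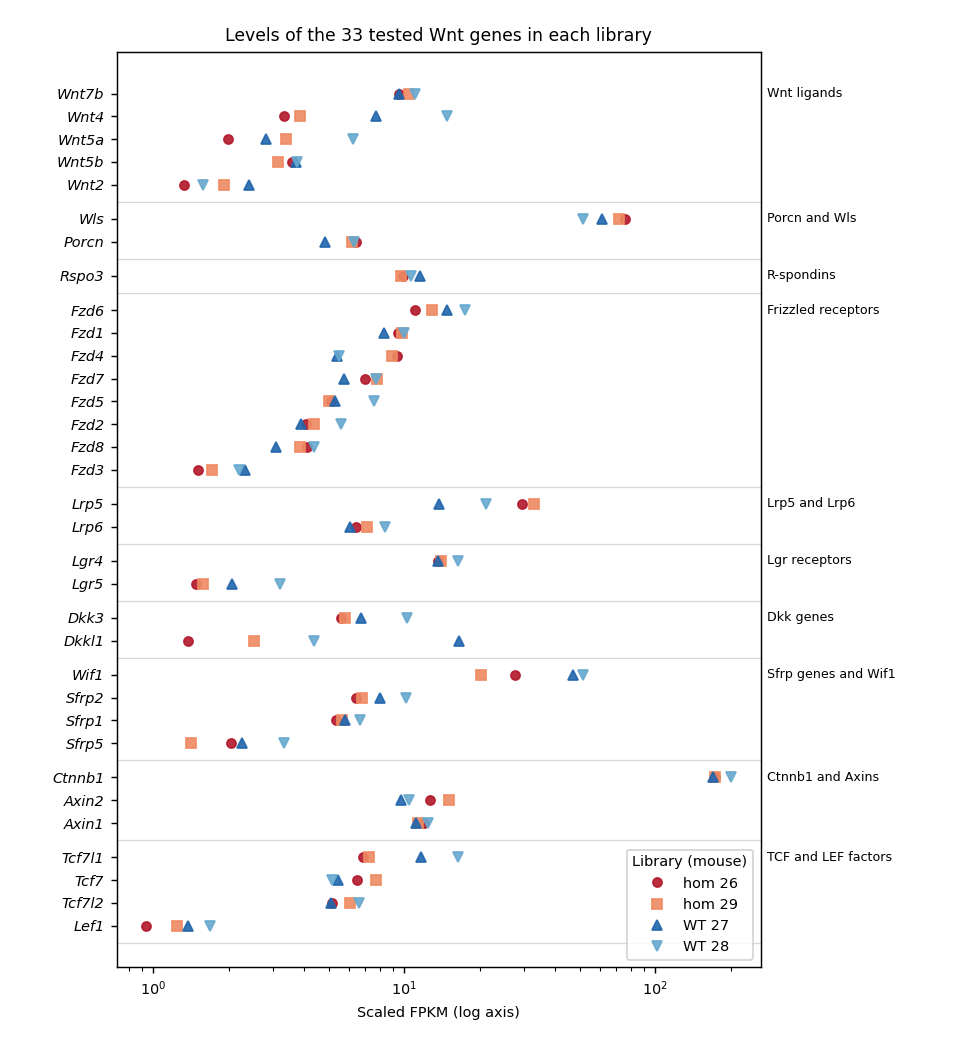
Scaled FPKM on a log axis (horizontal) of each of the 33 tested Wnt genes (rows, grouped by role); every point is 1 library, in red shades for homozygotes 26 and 29 and in blue shades for wild types 27 and 28. Ctnnb1 and Wls stand at the top of the range and Lef1 at the bottom, and the red and blue points of Fzd4, Wif1, Wnt4 and Tcf7l1 do not overlap.

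**Figure D2:**
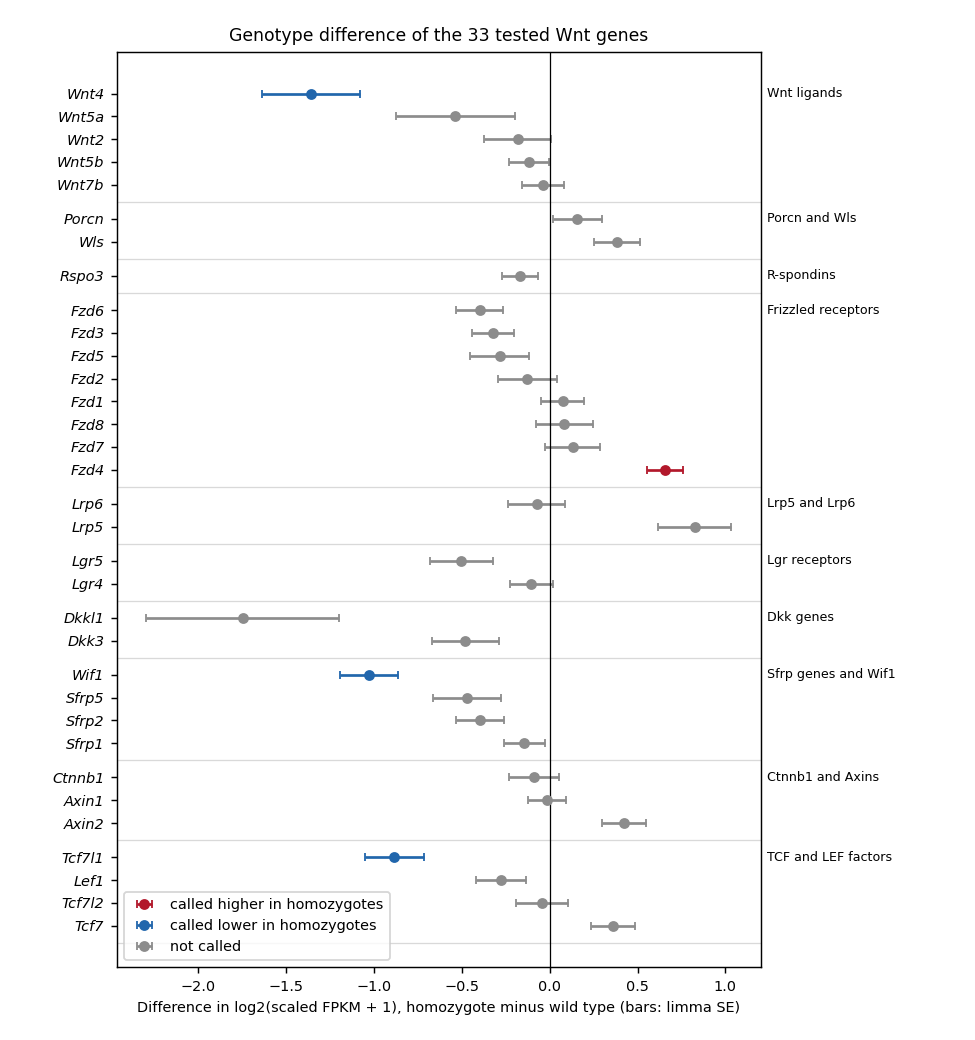
Difference in log2(scaled FPKM + 1), homozygote minus wild type, of the 33 tested Wnt genes, with bars for the limma standard error. Fzd4 (0.66) is coloured as called higher and Wnt4 (-1.36), Wif1 (-1.03) and Tcf7l1 (-0.88) as called lower; Dkkl1 lies lowest at -1.75 with the widest bar, and Lrp5 highest at 0.83, and neither was called.

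The promoters of the 4 called genes are shown because these are the regions next to the starts of the transcripts that differed. Each is the 250 bases before the start, 5′ to 3′ on the gene's strand, from RefSeq on GRCm38.p6, the C57BL/6J reference and not the FVB genome. Capitals mark GGAA or its reverse complement TTCC, the core of sites for ETS factors, the family of ERG. Wnt4 is from chr4:137277385-137277634 (plus strand), Wif1 from chr10:121033754-121034003 (plus strand), Tcf7l1 from chr6:72789046-72789295 (minus strand) and Fzd4 from chr7:89404116-89404365 (plus strand). The deposited coordinates of Tcf7l1 end at 72788956, so its window lies before a different start and does not adjoin them, unlike the windows of Wnt4, Wif1 and Fzd4.
Wnt4: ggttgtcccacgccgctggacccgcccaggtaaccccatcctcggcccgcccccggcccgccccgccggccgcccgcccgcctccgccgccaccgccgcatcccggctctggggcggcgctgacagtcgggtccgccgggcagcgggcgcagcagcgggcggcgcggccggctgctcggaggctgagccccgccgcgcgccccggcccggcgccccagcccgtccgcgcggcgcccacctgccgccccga
Wif1: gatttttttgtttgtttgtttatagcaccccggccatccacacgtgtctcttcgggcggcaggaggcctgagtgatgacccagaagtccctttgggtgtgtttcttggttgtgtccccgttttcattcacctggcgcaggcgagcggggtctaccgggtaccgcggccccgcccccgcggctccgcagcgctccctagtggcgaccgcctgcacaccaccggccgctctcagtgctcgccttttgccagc
Tcf7l1: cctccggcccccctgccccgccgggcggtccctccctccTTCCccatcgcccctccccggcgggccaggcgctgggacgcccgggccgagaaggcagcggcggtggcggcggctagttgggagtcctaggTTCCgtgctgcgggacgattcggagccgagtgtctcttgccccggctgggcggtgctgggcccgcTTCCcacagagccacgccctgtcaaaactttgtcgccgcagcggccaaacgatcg
Fzd4: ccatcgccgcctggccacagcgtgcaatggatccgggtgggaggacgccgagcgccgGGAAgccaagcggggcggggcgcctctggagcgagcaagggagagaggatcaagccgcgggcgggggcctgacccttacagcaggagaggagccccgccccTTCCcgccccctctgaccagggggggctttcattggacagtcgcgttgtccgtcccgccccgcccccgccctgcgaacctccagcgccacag
The core occurs 3 times in the Tcf7l1 window and 2 times in that of Fzd4, and it is not among the letters of the Wnt4 and Wif1 windows. It is common, being found on either strand in 93.4% of all 32851 promoter windows of that length. The longer ETS motif CCGGAA, found in 12% of all windows, is in none of these 4, nor are the TCF/LEF motifs CTTTGAT (3.21% of all windows) and CTTTGAA (4.46%). Among the 38 Wnt genes with a window in the table, CCGGAA occurs in those of Fzd10, Tcf7 and Wnt11, CTTTGAT in those of Wnt5b and Wnt11, and CTTTGAA in that of Dkk1. The 4 windows held 44 (Wnt4), 21 (Wif1), 29 (Tcf7l1) and 25 (Fzd4) CG dinucleotides, against a median of 6 over all windows and of 21 over windows of the Wnt genes. A match of letters is a description of the sequence and does not show binding.

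Among the ligands, Wnt4 fell and the most abundant, Wnt7b, stayed within the spread of the wild types. Wnt4 (Entrez 22417, chromosome 4, 137277635 to 137299501, mm10) is a ligand best known from kidney tubule and female reproductive tract formation. It was at 3.32 and 3.85 scaled FPKM in homozygotes 26 and 29, against 7.72 and 14.8 in wild types 27 and 28. Both homozygotes lay below both wild types, and the wild types were further apart than the homozygotes. The mean was 3.58 ± 0.375 in homozygotes and 11.3 ± 5.02 in wild types (SD, n = 2 each), a log2 difference of -1.36 (SE 0.280, limma adjusted p = 0.0467). The call was lost under 7 of the alternatives, with limma adjusted p between 0.0509 (robust trend) and 0.126 (without homozygote 26). Wild type 28, the library with most Wnt4, also had the highest sums of urothelial markers (7 genes; 431 and 402 scaled FPKM in homozygotes 26 and 29, 321 and 654 in wild types 27 and 28). The same held for nerve markers (9 genes), at 13.5 and 14.3 in homozygotes 26 and 29 and at 16.5 and 40.7 in wild types 27 and 28. Upk1a made up most of the urothelial sum in each library. It was at 389 and 331 in homozygotes 26 and 29 and at 266 and 445 in wild types 27 and 28. Upk3a was at 1.31 and 12.7 in homozygotes 26 and 29 and at 1.91 and 51.7 in wild types 27 and 28. Upk1b, Upk2, Upk3b and Krt20 followed the library order of Upk3a, and Gsdmc2 did not. In neither list was a marker at 0 in every library, and their part in the Wnt4 result was not tested. In bulk tissue, fewer cells of a type and less RNA per cell cannot be told apart.

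Wnt7b, a ligand made by many epithelia, was at 9.56 and 10.4 scaled FPKM in homozygotes 26 and 29 and at 9.52 and 11.1 in wild types 27 and 28. The groups overlapped, and the difference of -0.04 has a 95% interval from -0.34 to 0.26. Some of its exon bases, 324 of 4898 in GENCODE, lie opposite AU022754, so its reads may be shared if strand was not used. Wnt5a, which acts mainly outside the beta-catenin branch, was at 1.99 and 3.39 in homozygotes 26 and 29 and at 2.82 and 6.22 in wild types 27 and 28. These groups overlapped, and each genotype held a low and a high mouse (difference -0.54, SE 0.338, limma adjusted p = 0.452). Its relative Wnt5b was at 3.56 and 3.15 in homozygotes 26 and 29 and at 3.71 and 3.74 in wild types 27 and 28, a difference of -0.12 (SE 0.115). Wnt2, a ligand of connective tissue, was at 1.32 and 1.92 in homozygotes 26 and 29 and at 2.40 and 1.57 in wild types 27 and 28, again with overlap. All 5 tested ligands lay below 0 in the difference, but 1 of them passed.

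The other 14 ligand genes had means under 1 scaled FPKM and were not tested. Wnt6 lay between 0.814 and 0.838 scaled FPKM in homozygotes and between 0.798 and 0.962 in wild types. Wnt9a lay between 0.721 and 0.823 in homozygotes and between 0.716 and 0.829 in wild types, so in both genes the groups overlapped. Wnt10a was at 0.417 and 0.367 in homozygotes 26 and 29 and at 0.270 and 0.286 in wild types 27 and 28, higher in both homozygotes but under the filter. Wnt7a and Wnt8a were listed at 0 in every library. The summed level of all 19 ligand genes was 22.7 and 25.6 scaled FPKM in homozygotes 26 and 29 and 28.8 and 40.3 in wild types 27 and 28. Wnt4 made up 14.6% and 15.0% of that sum in homozygotes 26 and 29 and 26.8% and 36.8% in wild types 27 and 28. Wnt7b made up 42.1% and 40.7% in homozygotes 26 and 29 and 33% and 27.5% in wild types 27 and 28, and was the top ligand in every library but wild type 28, where Wnt4 was.

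**Figure D3:**
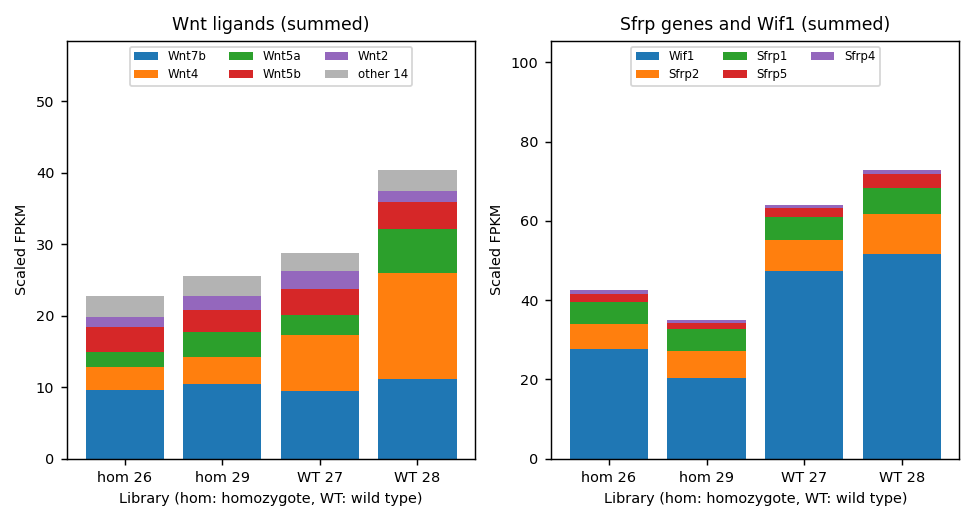
Summed scaled FPKM per library of the 19 Wnt ligand genes (left) and of Wif1 and the 4 Sfrp genes (right), with each bar split by gene; libraries run from homozygotes 26 and 29 to wild types 27 and 28. The Wnt4 segment is smaller in both homozygotes, the Wnt7b segment is of like height in all 4 libraries, and Wif1 makes up most of the right-hand sums.

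Genes for ligand export and for the R-spondin branch had no call by limma with all 4 libraries. Wls, which carries lipid-modified Wnt proteins to the cell surface, was among the most abundant of the 57 genes, at 75.9 and 71.8 scaled FPKM in homozygotes 26 and 29 and at 61.5 and 51.7 in wild types 27 and 28. The groups did not overlap, and the difference was 0.38 (SE 0.130, limma adjusted p = 0.167). Porcn, the enzyme that adds the lipid, was at 6.40 and 6.17 in homozygotes 26 and 29 and at 4.85 and 6.29 in wild types 27 and 28. Rspo3 made up most of the R-spondin transcripts, at 9.88 and 9.68 in homozygotes 26 and 29 and at 11.6 and 10.7 in wild types 27 and 28 (difference -0.17, SE 0.104, limma adjusted p = 0.441). Rspo2 lay between 0.686 and 0.732 in homozygotes and between 0.850 and 0.897 in wild types, and Rspo1 between 0.262 and 0.288 in homozygotes and between 0.331 and 0.414 in wild types, both under the filter. Of their receptors, Lgr4 was at 13.7 and 14.0 in homozygotes 26 and 29 and at 13.7 and 16.4 in wild types 27 and 28. Lgr5, known as a stem cell marker in intestine, was at 1.48 and 1.58 in homozygotes 26 and 29 and at 2.06 and 3.20 in wild types 27 and 28. Both homozygotes lay below both wild types in Lgr5 (difference -0.50, SE 0.178, limma adjusted p = 0.183), and its row overlaps that of A930009A15Rik. In GENCODE no exon bases of Lgr5 are shared with another gene. Exon bases shared with an opposite-strand gene were found for Rspo3, Fzd5, Fzd6, Sfrp2, Lef1, Wnt5a, Axin2 and Ctnnb1, whose reads carry the same uncertainty as those of Wnt7b. Lgr6 did not exceed 0.0733 in homozygotes or 0.0694 in wild types.

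Of the 8 Frizzled receptor genes tested, Fzd4 alone passed. Fzd4 (Entrez 14366, chromosome 7, 89404366 to 89410110, mm10) encodes a receptor for Wnt ligands and for Norrin, known from growth of retinal vessels. It was at 9.35 and 8.97 scaled FPKM in homozygotes 26 and 29, against 5.39 and 5.48 in wild types 27 and 28. The groups did not overlap, and in each genotype the mice were close together. The mean was 9.16 ± 0.274 in homozygotes and 5.43 ± 0.0671 in wild types (SD, n = 2 each), a log2 difference of 0.66 (SE 0.103, limma adjusted p = 0.0202). The call was lost without homozygote 26 (limma adjusted p = 0.222) and without homozygote 29 (0.155), with differences of 0.63 and 0.69. Endothelial markers (13 genes) summed to 54.8 and 60.6 scaled FPKM in homozygotes 26 and 29 and to 64.7 and 69.2 in wild types 27 and 28. All 13 lay below 0 in the difference, with none called by limma, and none was at 0. Basal epithelial markers (12 genes) summed to 281 and 248 in homozygotes 26 and 29 and to 160 and 290 in wild types 27 and 28, with 1 called higher and none at 0.

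The other Frizzled genes spread to both sides of 0. Fzd6, the most abundant and a planar polarity receptor, was at 11.0 and 12.9 scaled FPKM in homozygotes 26 and 29 and at 14.7 and 17.4 in wild types 27 and 28 (difference -0.40, SE 0.134, limma adjusted p = 0.164). Fzd3, also a polarity receptor, was at 1.51 and 1.71 in homozygotes 26 and 29 and at 2.31 and 2.20 in wild types 27 and 28 (-0.32, SE 0.120). Fzd5 was at 5.09 and 5.02 in homozygotes 26 and 29 and at 5.31 and 7.61 in wild types 27 and 28 (-0.28, SE 0.169). In these 3 genes both homozygotes lay below both wild types, and none passed. Fzd1, Fzd7, Fzd2 and Fzd8 overlapped between genotypes, with differences from -0.13 (Fzd2) to 0.13 (Fzd7). Fzd9 was under the filter, at 1.51 and 1.23 in homozygotes 26 and 29 and at 0.429 and 0.495 in wild types 27 and 28. It was higher in both homozygotes, and it was called by limma with no filter on low values (0.69, SE 0.0911, limma adjusted p = 0.0383) and has a q-value of 0.00419 in the authors' deposited table. Fzd10, also under the filter, was at 0.313 and 0.382 in homozygotes 26 and 29 and at 0.483 and 0.993 in wild types 27 and 28. Fzd4 made up 17.5% and 16.0% of the summed Frizzled level in homozygotes 26 and 29 and 10.8% and 8.86% in wild types 27 and 28, while the sum itself was 53.4 and 56.1 in homozygotes 26 and 29 and 49.7 and 61.9 in wild types 27 and 28.

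The co-receptor Lrp5 had the largest positive difference of the 33 tested genes but was not called. It was at 29.3 and 32.9 scaled FPKM in homozygotes 26 and 29, against 13.7 and 21.2 in wild types 27 and 28. Both homozygotes lay above both wild types, and the wild types were apart (difference 0.83, SE 0.208, limma adjusted p = 0.0825). It was called without wild type 27 (0.53, limma adjusted p = 0.021) and without wild type 28 (1.12, limma adjusted p = 0.00152). Lrp6, the other co-receptor, was at 6.42 and 7.07 in homozygotes 26 and 29 and at 6.10 and 8.35 in wild types 27 and 28, with overlap (difference -0.07, 95% interval -0.47 to 0.32).

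Of the secreted antagonists, Wif1 fell. Wif1 (Entrez 24117, chromosome 10, 121034004 to 121100642, mm10) encodes a protein that binds Wnt ligands outside the cell. It was at 27.6 and 20.3 scaled FPKM in homozygotes 26 and 29, against 47.3 and 51.6 in wild types 27 and 28. The groups did not overlap, and the gap between them was wider than the distance between mice of a genotype. The mean was 24.0 ± 5.2 in homozygotes and 49.4 ± 3.08 in wild types (SD, n = 2 each), a log2 difference of -1.03 (SE 0.166, limma adjusted p = 0.0224). The call was lost without homozygote 29 (-0.81, limma adjusted p = 0.1) and with no filter on low values (limma adjusted p = 0.0590). Smooth muscle markers (17 genes) summed to 1868 and 2196 scaled FPKM in homozygotes 26 and 29 and to 3629 and 2545 in wild types 27 and 28. All 17 lay below 0 in the difference, 2 were called lower and none was at 0. Fibroblast and matrix markers (20 genes) summed to 510 and 431 in homozygotes 26 and 29 and to 480 and 498 in wild types 27 and 28, with 17 of 20 below 0, 1 called lower and none at 0. The part of either list in the Wif1 result was not tested.

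The Sfrp genes, which encode soluble proteins with a Frizzled-like ligand-binding domain, had no call by limma with all 4 libraries. Sfrp2 was at 6.43 and 6.78 scaled FPKM in homozygotes 26 and 29 and at 8 and 10.2 in wild types 27 and 28 (difference -0.40, SE 0.138, limma adjusted p = 0.174). Sfrp5 was at 2.03 and 1.41 in homozygotes 26 and 29 and at 2.26 and 3.32 in wild types 27 and 28 (-0.47, SE 0.193, limma adjusted p = 0.244). Sfrp1 was at 5.35 and 5.67 in homozygotes 26 and 29 and at 5.78 and 6.64 in wild types 27 and 28 (-0.15, SE 0.117, limma adjusted p = 0.567). In all 3 both homozygotes lay below both wild types, and none passed with all 4 libraries. Without wild type 27 the differences were -0.56 (Sfrp2), -0.68 (Sfrp5) and -0.23 (Sfrp1). Without wild type 28 they were -0.24, -0.27 and -0.06. Sfrp4, under the filter, was at 1.21 and 0.773 in homozygotes 26 and 29 and at 0.732 and 1.03 in wild types 27 and 28, with overlap. Wif1 and the 4 Sfrp genes summed to 42.7 and 34.9 in homozygotes 26 and 29 and to 64.0 and 72.8 in wild types 27 and 28.

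Dkk3, a divergent family member, had the highest mean of the Dkk genes over the 4 libraries, though Dkkl1 stood above it in wild type 27 and in the wild type mean. Dkk3 was at 5.58 and 5.80 scaled FPKM in homozygotes 26 and 29 and at 6.72 and 10.3 in wild types 27 and 28. Both homozygotes lay below both wild types (difference -0.48, SE 0.192, limma adjusted p = 0.237), and the gene was called without wild type 27 (-0.76, limma adjusted p = 0.00405). Dkkl1, a Dkk3-related gene known from sperm that enters here by its name, was at 1.38 and 2.51 in homozygotes 26 and 29 and at 16.6 and 4.35 in wild types 27 and 28. Its difference of -1.75 had the largest error of the 33 tested genes (SE 0.549, limma adjusted p = 0.142). It was called without wild type 27 (-0.90, limma adjusted p = 0.0274) and without wild type 28 (-2.60, limma adjusted p = 6.40e-04). Dkkl1 was lowest in homozygote 26, then homozygote 29 and wild type 28, and highest in wild type 27. The 9 summed seminal vesicle genes had the same order, and most of their sum in the homozygotes was Pate4. Of the 9 genes, 4 did not follow that order one by one. Svs1, Spinkl and Svs3b were higher in homozygote 26 than in homozygote 29, and Pax2 was highest in wild type 28. Svs5, left out of the sum, stood above Pate4 in both homozygotes, at 6311 and 11693 in mice 26 and 29 against 4318 and 8148. The sum of the 9 seminal vesicle genes given above ran 4353 in homozygote 26, 8185 in homozygote 29, 11080 in wild type 28 and 42710 in wild type 27, with 6 of 9 called lower and none at 0. The part of seminal vesicle RNA in the Dkkl1 values was not tested. Dkk2 was at 0.833 and 0.882 in homozygotes 26 and 29 and at 0.665 and 1.08 in wild types 27 and 28, Dkk1 did not exceed 0.0220 in homozygotes or 0.0680 in wild types, and Dkk4 was listed at 0 throughout.

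Inside the cell, the TCF/LEF factor gene Tcf7l1 fell, and beta-catenin and Axin1 differed by less than the spread of the wild types. Tcf7l1 (Entrez 21415, chromosome 6, 72626380 to 72788956, mm10) encodes a factor that acts mainly as a repressor of Wnt target genes until beta-catenin relieves it. It was at 6.84 and 7.21 scaled FPKM in homozygotes 26 and 29, against 11.6 and 16.4 in wild types 27 and 28. The groups did not overlap, and the homozygotes were closer together than the wild types. The mean was 7.03 ± 0.261 in homozygotes and 14.0 ± 3.33 in wild types (SD, n = 2 each), a log2 difference of -0.88 (SE 0.169, limma adjusted p = 0.0378). The call was lost with unscaled FPKM (limma adjusted p = 0.116), with no filter (0.0919), without homozygote 26 (0.166) and without homozygote 29 (0.124). In GENCODE 179 of its 3924 exon bases lie opposite Gm15401, so reads of the 2 genes may be mixed if strand was not used. The urothelial and nerve marker sums that were highest in wild type 28 apply to Tcf7l1 as to Wnt4, and their part was not tested.

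Tcf7, another factor of the family known from T cells, was at 6.5 and 7.74 scaled FPKM in homozygotes 26 and 29 and at 5.46 and 5.17 in wild types 27 and 28 (difference 0.36, SE 0.123, limma adjusted p = 0.171). Tcf7l2 was at 5.17 and 6.07 in homozygotes 26 and 29 and at 5.12 and 6.58 in wild types 27 and 28, with overlap. Lef1 was at 0.937 and 1.24 in homozygotes 26 and 29 and at 1.38 and 1.68 in wild types 27 and 28 (-0.28, SE 0.143, limma adjusted p = 0.352). The factor with the highest level was Tcf7l1 in both wild types, at 49.4% and 54.9% of the summed TCF/LEF level in mice 27 and 28, whereas in homozygotes 26 and 29 its share was 35.2% and 32.4% and Tcf7 in homozygote 29 stood above it. Ctnnb1, the gene of beta-catenin, was the most abundant of the 57, at 173.5 and 173.4 in homozygotes 26 and 29 and at 170.1 and 201 in wild types 27 and 28 (difference -0.09, 95% interval -0.44 to 0.26). Axin1 was at 11.9 and 11.3 in homozygotes 26 and 29 and at 11.1 and 12.5 in wild types 27 and 28 (-0.02, 95% interval -0.29 to 0.26). Axin2, a scaffold gene that is itself a widely used target of beta-catenin, was at 12.7 and 15.1 in homozygotes 26 and 29, against 9.70 and 10.5 in wild types 27 and 28. Both homozygotes lay above both wild types, but the difference did not pass (0.42, SE 0.124, limma adjusted p = 0.122). The limma adjusted p of Axin2 lay between 0.0660 (without wild type 28) and 0.680 (without homozygote 29) over its refits, and its q-value in the authors' deposited table is 0.0561.

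The mice differed within a genotype too. Of the 33 tested genes, 27 (81.8%) were higher in wild type 28 than in wild type 27, where 51.7% of all 11762 tested genes were. Other genes of the pathway, described below, leaned the same way, with 62 of 83 (74.7%) higher in wild type 28. Their 5 lists ran from 58.3% (reported beta-catenin targets) to 89.5% (destruction complex and Dishevelled). Wnt5a, Wnt4, Lrp5 and Dkk3 differed most in that direction, by 0.92, 0.86, 0.59 and 0.55 in log2(scaled FPKM + 1). Dkkl1 differed the other way, by -1.72. Between homozygotes 29 and 26 the widest differences were those of Dkkl1 (0.56), Wnt5a (0.55) and Wif1 (-0.43). Of the basal epithelial markers, 11 of 12 were also higher in wild type 28 than in wild type 27, as were 18 of 20 fibroblast and matrix markers, 7 of 7 urothelial markers and 5 of 5 tested nerve markers. Smooth muscle markers went the other way, with 1 of 17 higher in wild type 28. The part of these cell types in the Wnt values was not tested.

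**Figure D4:**
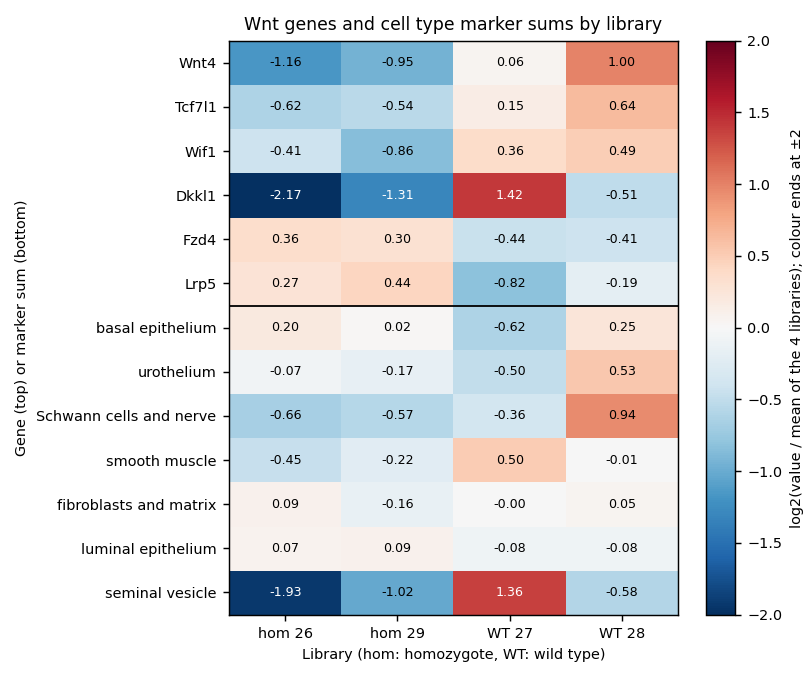
log2 of each library's value over the mean of the 4 libraries, for 6 Wnt genes (top) and for 7 summed marker lists (bottom); columns are homozygotes 26 and 29 and wild types 27 and 28, and the number in each field is the plotted value. Wnt4 (1.00) and nerve markers (0.94) are highest in wild type 28, Dkkl1 (1.42) and seminal vesicle genes (1.36) in wild type 27, and luminal markers lie within 0.09 of 0 throughout.

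Other genes of the pathway were read from 5 lists, of which 103 genes that are not among the 57 are in the table and 83 were tested. Of these 83, 5 rose and 1 fell, 7.23% against the background of 7.65%. The median difference was 0.03, and 39 of 83 lay below 0. Among 19 tested genes of the destruction complex and Dishevelled, none was called by limma, none had an unadjusted p under 0.05 and none is called in the authors' deposited table. Apc, the scaffold partner of Axin, was at 6.49 and 6.66 scaled FPKM in homozygotes 26 and 29 and at 4.48 and 6.61 in wild types 27 and 28. The largest moderated statistics in that list were those of casein kinase genes, Csnk1g3 (0.24, SE 0.104) and Csnk1a1 (0.26, SE 0.111). Among 12 tested genes of non-canonical signalling none was called by limma. Of these, 1 had an unadjusted p under 0.05 (Fuz, -0.43, SE 0.109, limma adjusted p = 0.0837), and Prickle3 came next (0.29, SE 0.135). The authors' deposited table calls 1, which is neither of these but Celsr2 (log2 fold -0.55, q-value 1.49e-05). The groups of Celsr2 overlapped (difference -0.23, SE 0.246). Among 19 nuclear cofactors and intracellular inhibitors none was called by limma, while 7 had an unadjusted p under 0.05 (5 higher and 2 lower). The authors' deposited table calls 1 of that list (Tle1). For the unadjusted counts of these lists, the background over all 11762 tested genes was 1295 higher and 1180 lower. The corepressor genes Ctbp2 (0.50, SE 0.114, limma adjusted p = 0.0615) and Tle1 (0.45, SE 0.117, limma adjusted p = 0.0876) led that list.

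Among 13 tested genes of receptor turnover and secreted regulation, Tspan12 rose. It encodes a tetraspanin that works with Fzd4 in Norrin signalling, and was at 59.8 and 46.3 scaled FPKM in homozygotes 26 and 29, against 23.5 and 22.7 in wild types 27 and 28. Its groups did not overlap (difference 1.15, SE 0.147, limma adjusted p = 0.0108), and it kept its call under every alternative run. Ndp, the gene of Norrin itself, did not exceed 0.0465 in homozygotes or 0.136 in wild types. Gpc3, a glypican, was at 13.0 and 11.9 in homozygotes 26 and 29 and at 3.74 and 7.42 in wild types 27 and 28 (1.09, SE 0.269, limma adjusted p = 0.0784). Rnf43 and Znrf3, ligases that remove Frizzled from the surface, did not pass (-0.28, SE 0.157 and 0.15, SE 0.136).

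Genes reported elsewhere as beta-catenin targets went in different directions. Of 24 tested, 4 rose and 1 fell (20.8% called, against 7.65% of all tested genes). Of 30 genes of this list with a q-value, the authors' deposited table calls 4 higher and 5 lower, leaving out folds given as codes. Over all its 14374 genes, codes included, 7.04% are called higher and 7.10% lower. Cd44, a hyaluronan receptor, rose to 23.0 and 22.8 scaled FPKM in homozygotes 26 and 29, against 3.69 and 5.82 in wild types 27 and 28 (difference 2.08, SE 0.189, limma adjusted p = 0.00350). Cd44 has a q-value of 1 in the authors' deposited table, beside a fold of 2.33 in log2. Plaur, the urokinase receptor, was at 9.89 and 10.4 in homozygotes 26 and 29, against 2.38 and 2.33 in wild types 27 and 28, and rose by 1.73 (SE 0.106, limma adjusted p = 9.86e-04). Edn1, the gene of the vessel-constricting peptide endothelin, rose by 0.92 (SE 0.160, limma adjusted p = 0.0284) and Enc1 by 1.07 (SE 0.217, limma adjusted p = 0.0441). The cyclin gene Ccnd1 was at 26.6 and 29.1 in homozygotes 26 and 29, against 44.2 and 47.6 in wild types 27 and 28, and fell by 0.70 (SE 0.110, limma adjusted p = 0.0207). The calls of Edn1, Enc1 and Ccnd1 were lost under some alternatives, among them unscaled FPKM and leaving out homozygote 29. Genes often used as direct readouts did not pass: Nkd1 was at 6.52 and 11.7 in homozygotes 26 and 29 and at 10.3 and 7.77 in wild types 27 and 28, and Sp5 at 8.63 and 7.51 in homozygotes 26 and 29 and at 8.78 and 14.8 in wild types 27 and 28. Notum, under the filter, was at 0.586 and 0.670 in homozygotes 26 and 29 and at 1.14 and 0.813 in wild types 27 and 28.

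**Figure D5:**
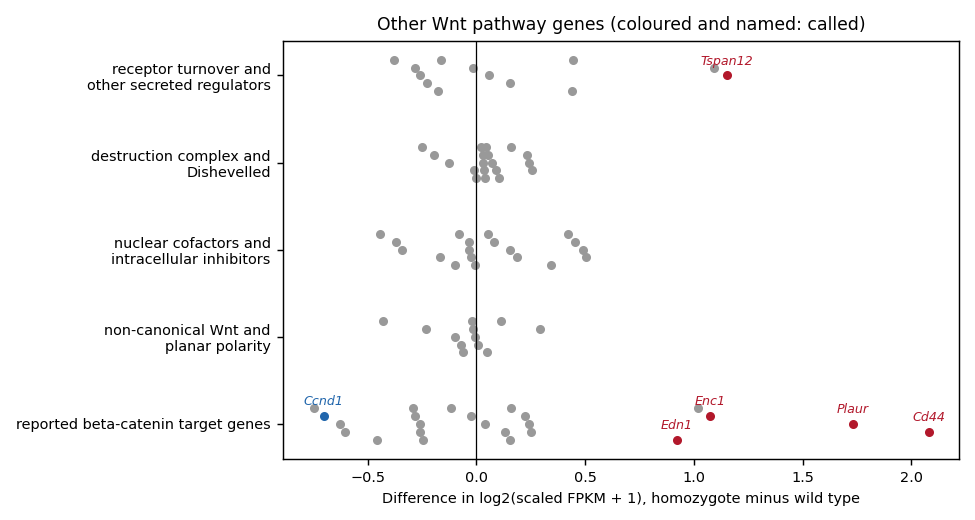
Difference in log2(scaled FPKM + 1), homozygote minus wild type, of the other tested pathway genes in 5 lists (rows; points are genes, and a gene on 2 lists appears on both); the vertical offset within a row only separates points. Called genes are coloured and named: Tspan12, Cd44, Plaur, Enc1 and Edn1 to the right and Ccnd1 to the left, while all points of the destruction complex lie between -0.25 and 0.26.

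The authors' deposited table holds its own comparison for 44 of the 57 genes. It calls 3 higher (Fzd4, Fzd9 and Lrp5) and 7 lower (Dkkl1, Fzd5, Lgr5, Tcf7l1, Wif1, Wnt4 and Wnt5a) at a q-value under 0.05. All 4 genes called with limma are among them in the same direction. In the authors' deposited table the log2 fold is -1.73 for Wnt4 (q-value 1.28e-13), -1.03 for Wif1 (q-value 2.54e-06), -0.98 for Tcf7l1 (q-value listed as 0) and 0.80 for Fzd4 (q-value 0.00664). Wnt5a has a fold of -0.80 and a q-value of 3.92e-09 there, although the FPKM of its genotypes overlap.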

How the data were processed

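Illumina libraries were made from RNA of the prostate lobes, purified with an RNeasy Plus kit, per the labels' protocols. The authors deposited 1 FPKM value per gene and library, with no unit in the header; the unit was read from the values. TopHat 1.3, Cufflinks 1.3 and mm10 are named in the submitters' processing notes; what each did, its settings and whether strand was used are not given in these sources. The deposited table also gives the authors' log2 fold, p-value and q-value, per the file headers; that the fold is log2 follows from its size beside the FPKM, and very large folds are codes. The deposited value 99999, found in 7 genes, was treated as missing. Starts were raised by 1.

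Each library's FPKM were divided by a median-of-ratios factor, taken over genes at 1 FPKM or more in all 4 libraries. The factors were 1.01 and 1.04 for homozygotes 26 and 29 and 0.921 and 1.03 for wild types 27 and 28. Genes averaging 1 scaled FPKM or more were tested on log2(scaled FPKM + 1) with limma 3.58.1 in R 4.3.3 (trend, two-sided, Benjamini-Hochberg, 0.05), with 2 residual and 3.62 prior degrees of freedom. FPKM keep no depth per gene, so no counting interval is given. The fit was also run on simulated data with normal errors drawn from its own variance model. Such data cannot check that model or the effect of differences in tissue make-up between mice.

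The rule for the 57 genes uses names alone, but that rule and the lists were chosen with earlier results of these data known. The text names every called Wnt gene, up to 3 others per role by moderated statistic, the top gene per role, untested genes with a mean of at least 0.3, called pathway genes and 2 more per list. Apc, Lgr6, Dkk1, Dkk4, Wnt7a, Wnt8a, Fzd1, Fzd2, Fzd7, Fzd8, Ndp, Rnf43, Znrf3, Nkd1, Sp5, Notum and Celsr2 were named after their values were seen. Alternatives changed the scaling (none, quantile), the pseudocount (0.1), the filter (none, or a mean of 5), the trend (none, robust) and the code (kept), left out each library, or took the authors' deposited call. Where 1 library of a genotype is left, it is assumed to vary as the other genotype does.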

Additional observations from a re-analysis of the deposited data

How the results depend on the processing

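With a library left out, the genes called numbered 216 to 995 higher and 139 to 1033 lower, the Wnt genes 0 to 4 higher and 0 to 11 lower, and the other pathway genes 3 to 13 higher and 0 to 9 lower. The median difference of tested Wnt genes stayed below 0 in each such fit, at -0.21 to -0.02. With unscaled FPKM, 185 genes, 1 Wnt gene and 0 other pathway genes were called lower by limma and 3 other pathway genes higher; 2 other pathway genes were lower at an unadjusted p under 0.05. With no filter on low values 2 Wnt genes were called higher and 0 lower (7 with an unadjusted p under 0.05 by limma), and 3 other pathway genes higher and 2 lower. That fit tested 54 Wnt genes and called 4.08% of all 17902 genes tested, against 33 Wnt genes and 7.65% with the filter. A minimum mean of 5 left 231 genes lower. The authors' deposited comparison calls 1012 genes higher and 1020 lower, 3 Wnt genes higher and 7 lower, and 7 other pathway genes lower. No alternative turned a called gene named in the text round; of 559 comparisons of a named gene with an alternative, 504 kept their side of the threshold, 26 lost a call and 29 gained one. No paired analysis was possible because each library is a mouse with its own number. Genes under 1 FPKM are limited by depth.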
